A study of Homo sapiens with 21 samples.

Results

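Homologous recombination and the Fanconi anemia pathway are represented here by 47 genes, picked by name, with earlier results of these data known. All 47 were found among the 28395 genes of the count table, and all 47 passed the filter on low counts that left 16036 genes for testing. RNA was sequenced from Hs578T cells, a breast cancer line that is established, triple-negative and mesenchymal in character, 8 h after addition of the compounds. THZ531 inhibits CDK12 and CDK13, the kinases that phosphorylate RNA polymerase II during elongation, and the study asked whether kinase inhibitors make a low dose of it act like a high dose. The 7 groups were DMSO (the solvent), 0.1 µM THZ531, 3.16 µM lapatinib (an EGFR and HER2 inhibitor), 1.0 µM nilotinib (a BCR-ABL inhibitor), the combinations of lapatinib or nilotinib at these doses with 0.1 µM THZ531, and 1.0 µM THZ531. Each group held 3 replicates of the same line, from 3 independent experiments.

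Homologous recombination repairs double-strand breaks and broken forks by copying an intact sister chromatid. Broken ends are resected to single strands, BRCA1 and BRCA2 prepare them for strand exchange, and helicases and nucleases later take the joined molecules apart. The Fanconi anemia proteins detect crosslinks between DNA strands, attach ubiquitin to FANCD2 and FANCI, and hand the opened lesion over to recombination. Loss of CDK12 is known for lowering long DNA repair transcripts such as BRCA1, with transcripts cut short at polyadenylation sites inside introns.

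Promoter sequences of 41 of the 47 genes were matched in RefSeq (GRCh38.p14), each running from 250 bases before to 50 bases after an annotated start. The E2F-type site TTTNNCGC, where N is any base, searched on both strands, was held by 8 of these 41 genes (19.5%), against 8.23% of 27305 genes and 6.89% of 35116 promoters of this length. The holders were XRCC2, SFR1, EXO1, RMI1, GEN1, FANCA, FANCC and FANCD2. Of these 8 genes, 6 were lower and 1 was higher in each of the lapatinib combination, the nilotinib combination and 1.0 µM THZ531, called the strong treatments here, a share close to that of the 47 genes as a whole (78.7%, 78.7% and 76.6% lower). Promoters of 5 holders that cover the whole range of change are shown, with the site in capitals: XRCC2 (chr7:152676092-152676391, minus strand), GEN1 (chr2:17753619-17753918, plus strand) and RMI1 (chr9:83980555-83980854, plus strand) fell strongly, FANCD2 (chr3:10026187-10026486, plus strand) hardly moved, and FANCA (chr16:89816598-89816897, minus strand) rose under TMM scaling.
XRCC2: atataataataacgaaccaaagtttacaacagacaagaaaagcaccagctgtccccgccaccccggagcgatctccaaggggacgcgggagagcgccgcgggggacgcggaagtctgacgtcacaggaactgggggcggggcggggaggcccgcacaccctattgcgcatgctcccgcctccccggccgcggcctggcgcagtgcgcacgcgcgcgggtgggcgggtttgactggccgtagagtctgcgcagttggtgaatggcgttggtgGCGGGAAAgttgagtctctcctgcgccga
GEN1: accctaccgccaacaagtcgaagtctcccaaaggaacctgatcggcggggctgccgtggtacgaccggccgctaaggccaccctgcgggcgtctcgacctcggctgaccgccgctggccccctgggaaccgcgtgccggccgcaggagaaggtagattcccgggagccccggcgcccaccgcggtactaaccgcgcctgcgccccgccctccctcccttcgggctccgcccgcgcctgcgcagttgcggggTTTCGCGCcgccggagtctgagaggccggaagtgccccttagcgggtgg
RMI1: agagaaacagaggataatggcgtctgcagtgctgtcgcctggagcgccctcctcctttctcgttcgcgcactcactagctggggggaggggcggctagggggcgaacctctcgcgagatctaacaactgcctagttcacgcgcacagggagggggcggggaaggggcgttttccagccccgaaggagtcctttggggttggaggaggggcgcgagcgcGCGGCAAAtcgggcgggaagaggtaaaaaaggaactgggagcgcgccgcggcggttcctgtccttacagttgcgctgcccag
FANCD2: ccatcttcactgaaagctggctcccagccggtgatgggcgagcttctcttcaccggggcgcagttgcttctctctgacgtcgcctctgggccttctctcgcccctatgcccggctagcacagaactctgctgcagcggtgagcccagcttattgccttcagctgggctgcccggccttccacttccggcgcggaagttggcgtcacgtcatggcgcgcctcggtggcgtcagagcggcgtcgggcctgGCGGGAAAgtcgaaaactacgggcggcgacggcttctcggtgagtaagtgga
FANCA: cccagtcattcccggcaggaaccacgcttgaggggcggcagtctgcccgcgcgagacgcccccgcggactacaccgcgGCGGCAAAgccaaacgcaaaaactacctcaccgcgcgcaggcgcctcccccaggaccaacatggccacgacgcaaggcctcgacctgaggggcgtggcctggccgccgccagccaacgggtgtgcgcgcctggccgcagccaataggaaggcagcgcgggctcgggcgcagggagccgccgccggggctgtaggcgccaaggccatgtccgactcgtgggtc
A match is a run of letters and not a measured binding site. The 8 letters are the same in XRCC2 and FANCD2, and again in RMI1 and FANCA. GEN1 and RMI1 each have 2 annotated starts, and a promoter that holds the site is shown. Whether the site has a part in the response was not tested. The ETS-type site CTTCCGG was present in 13 of the 41 genes (31.7%, against 12.2% of all genes), and the CCAAT box in 19 (46.3%, against 39.7%).

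The libraries held from 97612207 to 112229052 counts each, and log2 levels of replicates correlated at 0.990 to 0.994 across genes. Gene positions are those of GRCh38. Levels are given as CPM, the counts of a gene per 1000000 counts of its library, with library sizes adjusted by edgeR's TMM factors. The mesenchymal markers VIM, FN1 and AXL stood at 6845, 1374 and 1346 CPM in DMSO, while the estrogen receptor gene ESR1 and the epithelial cadherin gene CDH1 stood at 0.364 and 0.205 CPM. KRT18, listed with the epithelial genes, was at 83.7 CPM. The 13 mitochondrially encoded mRNAs took 1.25% ± 0.089 (SD, n = 3) of counts in DMSO and 1.60% ± 0.139, 1.56% ± 0.115 and 1.54% ± 0.219 in the lapatinib combination, the nilotinib combination and 1.0 µM THZ531.

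In these 3 strong treatments most genes of both pathways were downregulated, many to a fraction of their DMSO level, and RAD51B, MRE11, RBBP8, FANCA and FANCI were higher in all 3 under TMM scaling. A gene is called where its adjusted p-value from edgeR's quasi-likelihood test is under 0.05. All comparisons with DMSO share its 3 libraries. With the lapatinib combination 37 of 47 genes were lower and 6 higher, against 37.8% and 34.3% of all genes tested. With the nilotinib combination 37 were lower and 5 higher, against 37.3% and 33.7%, and with 1.0 µM THZ531 36 were lower and 5 higher, against 36.8% and 33.1%. Beyond a log2 fold change (FC) of -1 there were 27, 26 and 25 genes, against 21.3%, 20.8% and 18.9% of all genes, and no gene exceeded a log2 FC of 1 with a call, where 7.90%, 6.54% and 5.77% of all genes did. The median log2 FC of the 47 genes was -1.44, -1.44 and -1.24 in this order, and that of all 16036 genes was -0.01 in each. RNA was measured in bulk, so fewer cells expressing a gene and less of its RNA per cell cannot be told apart.

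The same 36 genes were lower in all 3 treatments, 24 of them beyond a log2 FC of -1 each time. The share of all genes lower or higher in all 3 was not counted. Agreement between the treatments is therefore not shown to be particular to these genes. The 5 genes higher in all 3 are named above. SWI5, RAD50, EME2, FANCG, FANCL and FANCD2 belonged to neither set. The direction of the rises depended on the scaling. When libraries were scaled to the 13 mitochondrial mRNAs, the median of all genes shifted by -0.69, -0.63 and -0.55, 44, 43 and 40 of the 47 genes were lower, against 58.4%, 55.9% and 52.5% of all genes, and 0 were higher, against 5.30%, 4.83% and 4.35%. Cell cycle genes moved as well under TMM scaling: of 12 G2 and mitosis genes 9, 10 and 8 were lower and 0 higher, while of 12 S phase genes 5, 4 and 3 were lower and 6, 7 and 7 higher. Of all genes, 36.8% to 37.8% were lower and 33.1% to 34.3% higher on that scale. The part of the cell cycle genes in the change of the repair genes was not tested.

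**Figure D1:**
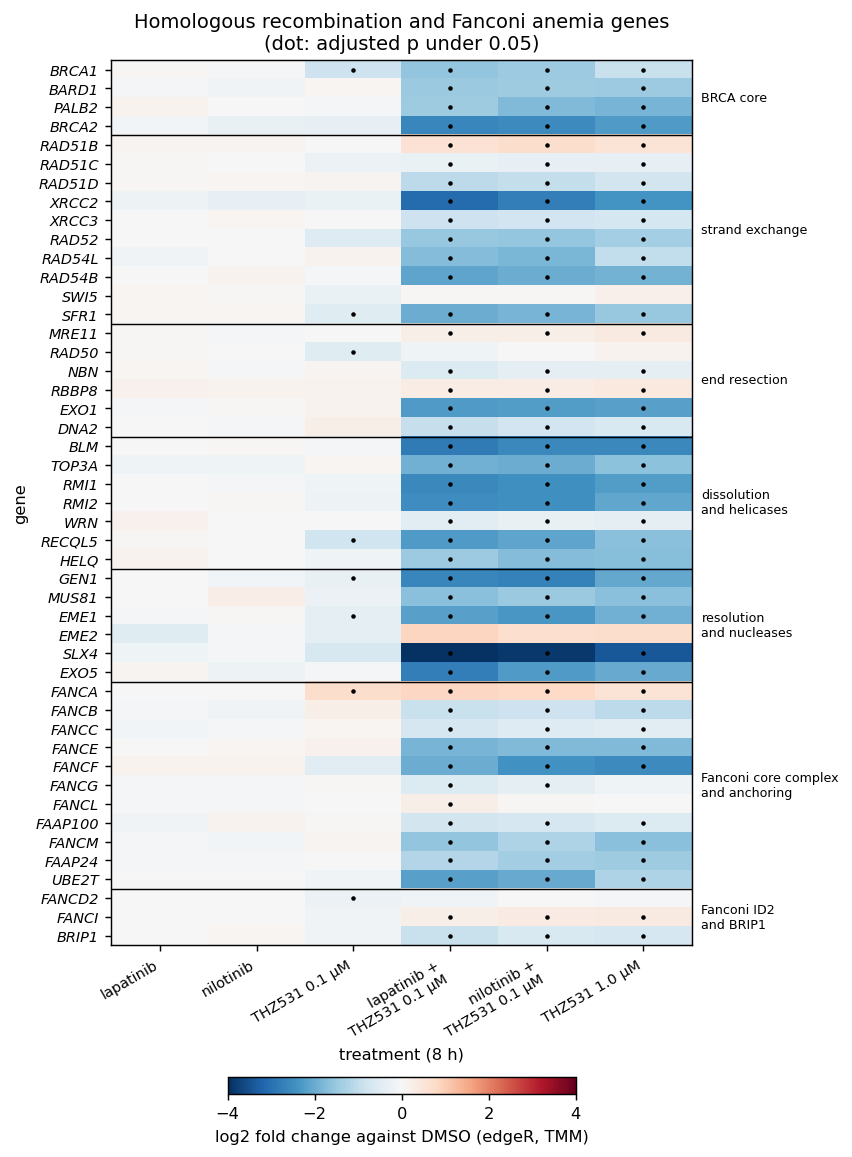
Log2 FC against DMSO (colour, blue for lower and red for higher) of the 47 genes (vertical axis, grouped by role) in the 6 treatments (horizontal axis), with a dot where the edgeR adjusted p was under 0.05. The 3 right-hand columns are mostly blue, with 37, 37 and 36 genes called lower, against 37.8%, 37.3% and 36.8% of all genes. The inhibitors alone carry no dot, and 0.1 µM THZ531 carries 8.

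The BRCA core fell as a block in the strong treatments, with all 4 of its genes called lower each time, against 36.8% to 37.8% of all genes. BRCA1 (chr17:43044295-43170327, minus strand), which with BARD1 forms the ubiquitin ligase that directs repair to recombination, was the core gene that already fell at the low dose of THZ531. In DMSO the libraries held 20.4, 23.3 and 20.7 CPM of BRCA1, with lapatinib 19.6, 23.9 and 22.5, with nilotinib 19.01, 20.6 and 22.6 and with 0.1 µM THZ531 11.6, 11.4 and 12.97. With 0.1 µM THZ531 added to lapatinib it was 6.96, 6.79 and 7.64, added to nilotinib 8.26, 7.02 and 8.48, and with 1.0 µM THZ531 11.7, 13.6 and 9.26. The libraries with 0.1 µM THZ531 lay below all DMSO libraries and overlapped those with 1.0 µM, while both combinations lay lower still. The log2 FC of BRCA1 was -1.59 ± 0.12, -1.44 ± 0.12 and -0.90 ± 0.12 (± SE; lapatinib combination, nilotinib combination and 1.0 µM THZ531; edgeR adjusted p = 3.63e-10, 1.61e-09 and 1.17e-06). With 0.1 µM alone its log2 FC was -0.84 ± 0.12 (edgeR adjusted p = 0.000244).

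BARD1 (chr2:214725646-214809683, minus strand), its partner, did not share the fall at the low dose. BARD1 levels were 41.3, 38.1 and 38.98 CPM in DMSO, 38.7, 36.4 and 37.9 in lapatinib, 32.2, 38.9 and 37.2 in nilotinib and 45.5, 42.5 and 38.3 in the low dose of THZ531. Both combinations were measured at 13.4, 16.2 and 12.5 (lapatinib) and 12.3, 14.8 and 16.7 (nilotinib), and 1.0 µM THZ531 at 17.4, 10.5 and 15.7. The low dose overlapped DMSO and the 3 strong treatments lay below it. Against DMSO this was a log2 FC of -1.49 ± 0.15 (± SE), -1.44 ± 0.15 and -1.44 ± 0.15 in the same order (edgeR adjusted p = 1.76e-08, 3.15e-08 and 3.61e-08). PALB2 (chr16:23603165-23641310, minus strand) connects BRCA1 to BRCA2. For PALB2 the replicates gave 18.7, 17.1 and 18.6 CPM in DMSO, 20.3, 19.9 and 19.5 with lapatinib, 18.7, 18.7 and 17.2 with nilotinib and 17.2, 17.4 and 16.8 with 0.1 µM THZ531. Under the strong treatments it was 5.42, 8.03 and 6.66 (lapatinib combination), 4.66, 5.36 and 6.15 (nilotinib combination) and 6.15, 2.98 and 5.82 (1.0 µM THZ531). Here 1.0 µM THZ531 reached the lowest library, replicate 2, and all 9 strongly treated libraries lay below DMSO. Log2 FC for PALB2 came to -1.44 ± 0.18, -1.75 ± 0.18 and -1.86 ± 0.18 (± SE), with edgeR adjusted p = 4.43e-07, 3.47e-08 and 1.81e-08. BRCA2 (chr13:32315077-32400268, plus strand), which acts on single-stranded DNA before strand exchange, fell furthest of the 4. BRCA2 stood at 19.9, 24.03 and 18.3 CPM in the DMSO libraries, 14.7, 22.1 and 21.3 with lapatinib, 15.8, 16.7 and 18.2 with nilotinib and 14.8, 16.4 and 18.6 with 0.1 µM THZ531. Levels of 2.98, 3.97 and 3.24 were measured in the lapatinib combination, 3.23, 3.08 and 4.23 in the nilotinib combination and 5.21, 3.18 and 4.57 at 1.0 µM THZ531. The strongly treated libraries held 16.4%, 16.9% and 20.8% of the mean DMSO level, without overlap. BRCA2 log2 FC were -2.61 ± 0.19, -2.56 ± 0.19 and -2.26 ± 0.18 (± SE; edgeR adjusted p = 1.44e-10, 1.97e-10 and 1.27e-09). BRCA2 in nilotinib alone also lay below DMSO in all 3 libraries, by a log2 FC of -0.29 that was not called (edgeR adjusted p = 0.622).

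Of the 10 strand exchange genes, 8 were lower and 1 higher in each strong treatment, where 36.8% to 37.8% of all genes were lower and 33.1% to 34.3% higher. XRCC2 (chr7:152644776-152676141, minus strand) belongs to the complex with RAD51B, RAD51C and RAD51D that assists strand exchange. In DMSO the libraries held 7.80, 10.6 and 7.88 CPM of XRCC2, with lapatinib 5.81, 8.54 and 8.28, with nilotinib 6.17, 7.32 and 7.42 and with 0.1 µM THZ531 7.30, 6.98 and 7.58. The lapatinib combination gave 1.03, 1.03 and 1.07, the nilotinib combination 1.24, 1.08 and 1.55 and 1.0 µM THZ531 2.09, 1.26 and 1.70. Its strongly treated libraries stayed below the lowest DMSO library by a wide margin. The log2 FC of XRCC2 was -3.07 ± 0.19, -2.76 ± 0.18 and -2.38 ± 0.18 (± SE; lapatinib combination, nilotinib combination and 1.0 µM THZ531; edgeR adjusted p = 1.51e-11, 5.83e-11 and 4.84e-10). RAD51B (chr14:67819779-68683096, plus strand), a partner in the same complex and the longest of the 47 genes at 863 kb, went the other way. RAD51B levels were 5.14, 4.31 and 4.93 CPM in DMSO, 5.53, 4.92 and 5.05 in lapatinib, 5.25, 5.04 and 5.30 in nilotinib and 5.41, 4.84 and 4.28 in the low dose of THZ531. With 0.1 µM THZ531 added to lapatinib it was 8.50, 6.03 and 6.93, added to nilotinib 8.58, 7.81 and 6.89, and with 1.0 µM THZ531 6.32, 7.53 and 7.19. All 9 strongly treated libraries lay above all DMSO libraries on this scale. Against DMSO this was a log2 FC of 0.58 ± 0.12 (± SE), 0.69 ± 0.12 and 0.55 ± 0.12 in the same order (edgeR adjusted p = 0.000272, 3.74e-05 and 0.000472). With scaling to mitochondrial mRNAs these values became -0.11, 0.07 and 0.01. Of the remaining subunits, RAD51C had log2 FC of -0.26, -0.33 and -0.32 and RAD51D of -1.05, -0.96 and -0.73, and XRCC3, which pairs with RAD51C, had -0.83, -0.77 and -0.71, all called lower. KLC1 overlaps XRCC3 on the opposite strand with a mean of 12767 counts, and without strand their reads cannot be told apart where the genes overlap.

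RAD54L and RAD54B encode DNA translocases that act during strand exchange. RAD54L (chr1:46247688-46278473, plus strand) separated the combinations from the high dose. For RAD54L the replicates gave 37.6, 38.9 and 34.8 CPM in DMSO, 35.2, 33.6 and 32.8 with lapatinib, 32.9, 38.1 and 38.4 with nilotinib and 38.8, 41.5 and 42.8 with 0.1 µM THZ531. Both combinations were measured at 10.8, 11.4 and 10.9 (lapatinib) and 10.8, 10.3 and 10.5 (nilotinib), and 1.0 µM THZ531 at 17.2, 21.9 and 16.8. Both combinations lay below 1.0 µM THZ531, and that group below DMSO, with no overlap. Log2 FC for RAD54L came to -1.75 ± 0.09, -1.82 ± 0.09 and -0.99 ± 0.09 (± SE), with edgeR adjusted p = 1.33e-12, 8.60e-13 and 6.22e-09. LRRC41, on the opposite strand with a mean of 10267 counts, overlaps RAD54L, and the reads of the shared stretch cannot be told apart. RAD54B (chr8:94371960-94475115, minus strand) fell to a similar level in all 3. RAD54B stood at 54.6, 50.00 and 53.97 CPM in the DMSO libraries, 55.4, 49.7 and 54.9 with lapatinib, 56.7, 59.7 and 56.5 with nilotinib and 53.9, 52.01 and 45.9 with 0.1 µM THZ531. Under the strong treatments it was 11.6, 13.2 and 11.9 (lapatinib combination), 13.8, 12.98 and 13.7 (nilotinib combination) and 15.4, 12.7 and 14.98 (1.0 µM THZ531). The low dose overlapped DMSO and nilotinib alone lay above it. RAD54B log2 FC were -2.11 ± 0.08, -1.97 ± 0.08 and -1.88 ± 0.08 (± SE; edgeR adjusted p = 2.77e-14, 7.60e-14 and 2.93e-13). SFR1 (chr10:104120166-104126383, plus strand) forms with SWI5 a complex that assists strand exchange. In DMSO the libraries held 8.52, 6.89 and 7.83 CPM of SFR1, with lapatinib 8.85, 7.74 and 7.996, with nilotinib 8.55, 8.11 and 7.83 and with 0.1 µM THZ531 5.91, 5.50 and 5.25. Levels of 1.96, 2.09 and 1.88 were measured in the lapatinib combination, 1.99, 2.46 and 2.001 in the nilotinib combination and 2.35, 3.09 and 2.63 at 1.0 µM THZ531. The low dose already lay below DMSO and the strong treatments lay below the low dose. The log2 FC of SFR1 was -1.97 ± 0.11, -1.85 ± 0.11 and -1.53 ± 0.11 (± SE; lapatinib combination, nilotinib combination and 1.0 µM THZ531; edgeR adjusted p = 6.56e-12, 1.68e-11 and 3.19e-10). SWI5 showed log2 FC of 0.03, 0.05 and 0.20 and was not called in any of them under TMM scaling, with CPM between 12.8 and 19.2 in these 9 libraries and between 14.03 and 16.4 in DMSO. GOLGA2 overlaps SWI5 with a mean of 5225 counts. RAD52, which anneals single strands, had log2 FC of -1.52, -1.55 and -1.36, at no more than 3.02 CPM in any DMSO library. ERC1 overlaps RAD52 on the opposite strand with a mean of 9171 counts, against 255 to 350 for RAD52 in DMSO.

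Of the 6 end resection genes, 3 (EXO1, DNA2 and NBN) were lower and 2 (MRE11 and RBBP8) higher in each strong treatment. These shares, 50% and 33.3%, were near those of all genes, of which 36.8% to 37.8% were lower and 33.1% to 34.3% higher. The long-range exonuclease gene EXO1 (chr1:241847986-241889939, plus strand) fell to about the same level in all 3 strong treatments. EXO1 levels were 48.7, 45.3 and 48.7 CPM in DMSO, 47.1, 42.8 and 44.2 in lapatinib, 44.8, 51.4 and 50.9 in nilotinib and 55.5, 52.3 and 50.5 in the low dose of THZ531. The lapatinib combination gave 10.6, 10.1 and 9.02, the nilotinib combination 10.8, 9.44 and 10.2 and 1.0 µM THZ531 11.1, 9.13 and 11.2. The low dose lay slightly above DMSO in all 3 libraries, a difference that was not called (log2 FC 0.15, edgeR adjusted p = 0.360). Against DMSO this was a log2 FC of -2.27 ± 0.09 (± SE), -2.23 ± 0.09 and -2.18 ± 0.09 in the same order (edgeR adjusted p = 2.46e-14, 3.56e-14 and 1.09e-13). The nuclease and helicase gene DNA2, which works beside EXO1, fell less, with log2 FC of -0.91, -0.77 and -0.59.

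The sensor complex of MRE11, RAD50 and NBN, and RBBP8, which encodes the CtIP activator of MRE11, did not fall beyond a log2 FC of -1 in any strong treatment. RBBP8 (chr18:22914139-23026486, plus strand) was among the most abundant of the 47 genes. For RBBP8 the replicates gave 108, 97.1 and 97.2 CPM in DMSO, 117, 114 and 112 with lapatinib, 118, 106 and 108 with nilotinib and 115, 111 and 107 with 0.1 µM THZ531. With 0.1 µM THZ531 added to lapatinib it was 130.2, 125 and 117, added to nilotinib 130.3, 119 and 122, and with 1.0 µM THZ531 132, 138 and 125. The strongly treated libraries lay above DMSO without overlap on this scale. Log2 FC for RBBP8 came to 0.30 ± 0.06, 0.30 ± 0.06 and 0.39 ± 0.06 (± SE), with edgeR adjusted p = 0.000299, 0.000366 and 2.11e-05. With scaling to mitochondrial mRNAs its log2 FC turned to -0.38, -0.33 and -0.16. RAD50 (chr5:132556977-132646349, plus strand) was called lower with the low dose of THZ531 and not with the strong treatments under TMM scaling. RAD50 stood at 64.6, 74.5 and 61.99 CPM in the DMSO libraries, 52.4, 79.6 and 73.9 with lapatinib, 64.6, 62.1 and 70.6 with nilotinib and 43.9, 46.98 and 51.5 with 0.1 µM THZ531. Both combinations were measured at 55.3, 61.02 and 62.95 (lapatinib) and 58.2, 64.5 and 74.2 (nilotinib), and 1.0 µM THZ531 at 82.98, 73.1 and 65.7. The low dose lay below DMSO, while the other groups overlapped it. RAD50 log2 FC were -0.17 ± 0.13, -0.03 ± 0.13 and 0.14 ± 0.13 (± SE; edgeR adjusted p = 0.254, 0.847 and 0.334). At the low dose the log2 FC was -0.50 ± 0.13 (edgeR adjusted p = 0.0251), and this call was lost on leaving out DMSO replicate 1 or 2 or 0.1 µM replicate 1 or 2. RAD50 with scaling to mitochondrial mRNAs was instead called lower in the strong treatments (-0.85, -0.65 and -0.41) and not at the low dose (edgeR adjusted p = 0.0566). MRE11 was higher, with log2 FC of 0.23, 0.22 and 0.35, values that became -0.46, -0.40 and -0.19 with scaling to mitochondrial mRNAs. ANKRD49 overlaps MRE11 on the opposite strand with a mean of 854 counts. NBN had log2 FC of -0.54, -0.37 and -0.35. Per kb of exon NBN had 33.6 CPM in DMSO and RBBP8 30.7, the next highest levels of the 47 genes after UBE2T at 58.7.

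The 7 genes of junction dissolution and related helicases were all lower in each strong treatment, and 6 of them fell beyond a log2 FC of -1. Of all genes, 36.8% to 37.8% were lower and 18.9% to 21.3% were lower beyond a log2 FC of -1. BLM, TOP3A, RMI1 and RMI2 encode the helicase, the topoisomerase and the 2 cofactors that dissolve double Holliday junctions without crossover. BLM (chr15:90717346-90816166, plus strand) kept overlapping levels in DMSO, the inhibitors alone and the low dose. In DMSO the libraries held 19.2, 19.2 and 18.1 CPM of BLM, with lapatinib 17.8, 18.8 and 19.99, with nilotinib 16.99, 21.3 and 20.4 and with 0.1 µM THZ531 17.2, 18.4 and 17.7. Under the strong treatments it was 2.44, 3.27 and 2.24 (lapatinib combination), 3.20, 3.12 and 3.08 (nilotinib combination) and 3.38, 2.20 and 3.95 (1.0 µM THZ531). Its 9 strongly treated libraries held between 2.20 and 3.95 CPM, all below every other library. The log2 FC of BLM was -2.83 ± 0.16, -2.59 ± 0.16 and -2.57 ± 0.15 (± SE; lapatinib combination, nilotinib combination and 1.0 µM THZ531; edgeR adjusted p = 3.43e-12, 1.15e-11 and 1.87e-11). RMI1 (chr9:83980359-84004074, plus strand) followed the same course. RMI1 levels were 41.2, 33.4 and 37.9 CPM in DMSO, 39.03, 33.1 and 39.4 in lapatinib, 35.9, 37.6 and 36.3 in nilotinib and 35.7, 32.9 and 31.4 in the low dose of THZ531. Levels of 6.17, 6.87 and 5.80 were measured in the lapatinib combination, 6.16, 6.99 and 7.22 in the nilotinib combination and 9.18, 6.64 and 8.01 at 1.0 µM THZ531. No strongly treated library came near the DMSO range. Against DMSO this was a log2 FC of -2.58 ± 0.11 (± SE), -2.47 ± 0.11 and -2.24 ± 0.11 in the same order (edgeR adjusted p = 1.21e-13, 2.37e-13 and 1.46e-12). HNRNPK, with a mean of 115927 counts, overlaps RMI1 on the opposite strand, and reads of the shared stretch cannot be told apart. TOP3A had log2 FC of -1.91, -2.00 and -1.63 and RMI2 of -2.48, -2.46 and -2.06.

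RECQL5 (chr17:75626854-75667154, minus strand), a helicase that restrains recombination, fell in steps. For RECQL5 the replicates gave 7.44, 8.71 and 8.07 CPM in DMSO, 7.57, 8.94 and 8.33 with lapatinib, 8.79, 7.89 and 7.75 with nilotinib and 4.64, 4.56 and 4.82 with 0.1 µM THZ531. The lapatinib combination gave 1.70, 1.77 and 1.51, the nilotinib combination 1.80, 1.93 and 1.91 and 1.0 µM THZ531 2.47, 3.28 and 1.87. The low dose lay below DMSO and above every strongly treated library. Log2 FC for RECQL5 came to -2.28 ± 0.14, -2.10 ± 0.14 and -1.67 ± 0.14 (± SE), with edgeR adjusted p = 1.95e-11, 6.19e-11 and 1.71e-09. At the low dose the log2 FC was -0.79 ± 0.13 (edgeR adjusted p = 0.00122). HELQ, a helicase that also anneals strands, had log2 FC of -1.44, -1.73 and -1.72. The Werner syndrome helicase gene WRN had log2 FC of -0.43, -0.30 and -0.37, the smallest fall in this role.

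**Figure D2:**
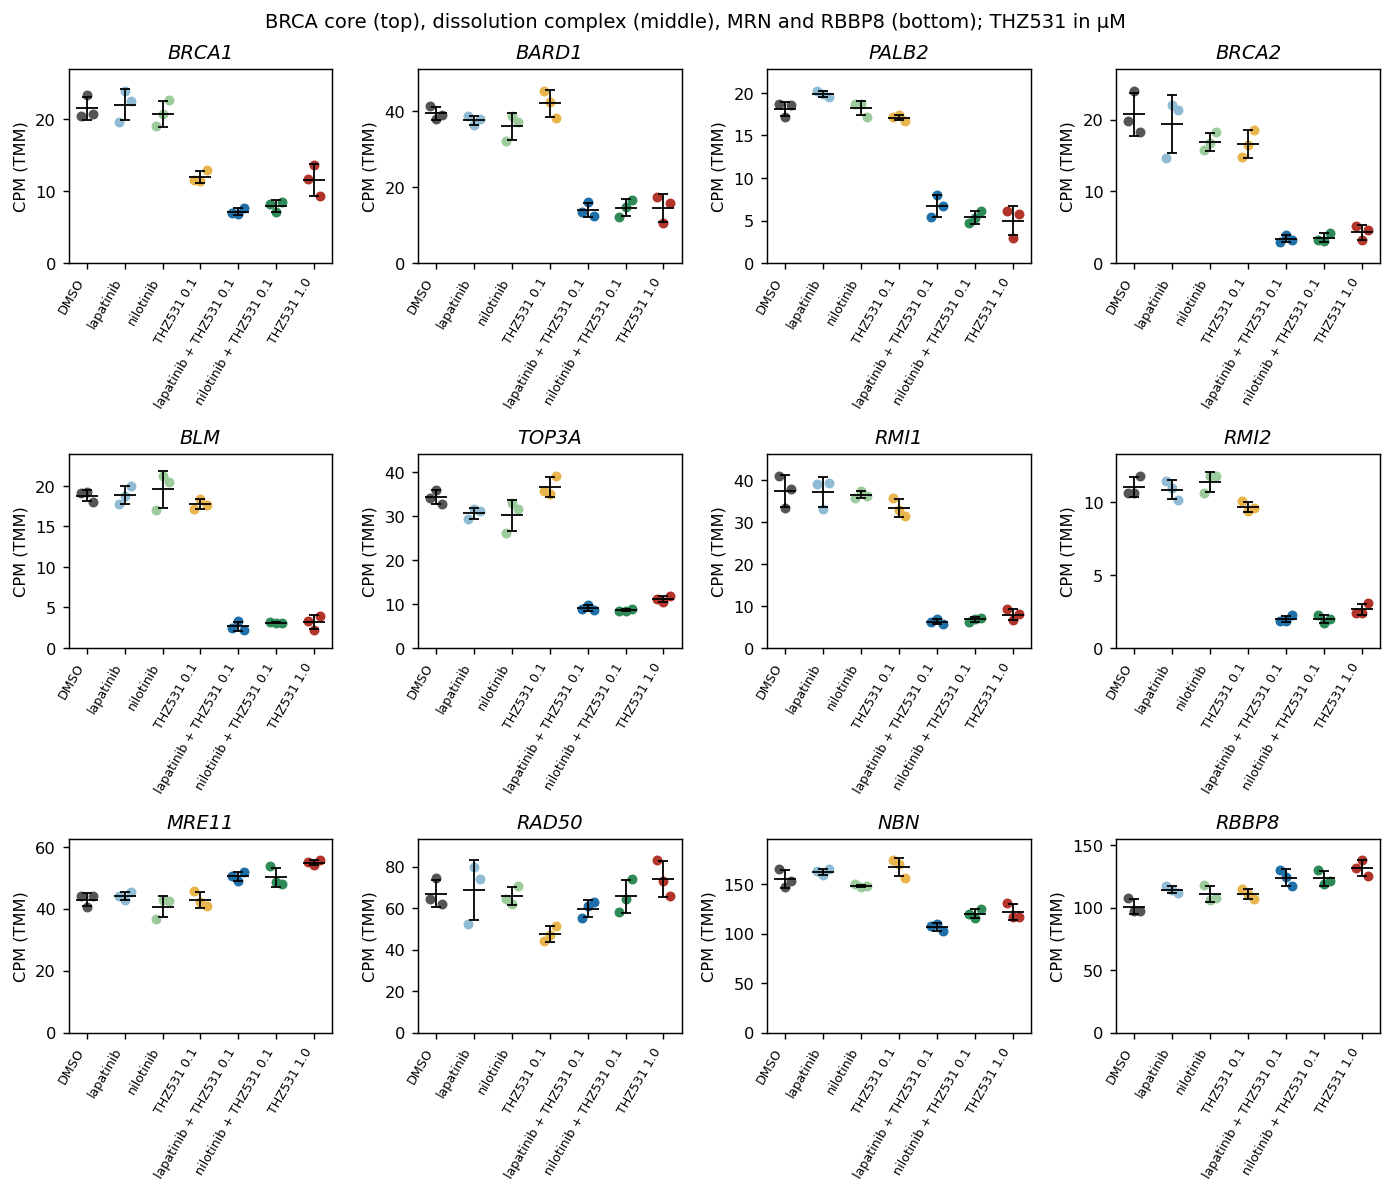
CPM after TMM scaling (vertical axes, from 0) in every library (points) of the 7 groups (horizontal axes), with the mean (long bar) and SD (n = 3) for 12 genes of the BRCA core, the dissolution complex and the end resection sensor with RBBP8. The BRCA and dissolution genes drop in the 3 right-hand groups, while MRE11 and RBBP8 lie above DMSO there on this scale, a direction that turned with scaling to mitochondrial mRNAs.

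Among the 6 genes of junction resolution and nucleases, 5 fell beyond a log2 FC of -1 in each strong treatment, against 18.9% to 21.3% of all genes. SLX4 (chr16:3581181-3611606, minus strand), the scaffold that gathers structure-specific nucleases, had the lowest log2 FC of the 47 genes in all 3. SLX4 stood at 14.2, 19.9 and 14.7 CPM in the DMSO libraries, 12.2, 16.3 and 15.3 with lapatinib, 12.9, 16.9 and 17.2 with nilotinib and 8.34, 10.8 and 11.9 with 0.1 µM THZ531. With 0.1 µM THZ531 added to lapatinib it was 0.656, 1.12 and 1.36, added to nilotinib 0.929, 1.005 and 1.42, and with 1.0 µM THZ531 1.94, 1.19 and 1.49. These 9 libraries held 60 to 185 counts for SLX4, against 1730 to 2304 in DMSO. SLX4 log2 FC were -3.96 ± 0.24, -3.86 ± 0.24 and -3.40 ± 0.23 (± SE; edgeR adjusted p = 1.42e-11, 1.97e-11 and 1.12e-10). The low dose lay below DMSO in all libraries but was not called (log2 FC -0.65, edgeR adjusted p = 0.0619). That depended on the setting. SLX4 was called there with library size alone, upper-quartile scaling, no filter, a replicate block, only the groups compared and DESeq2's Wald test. It was not called with DESeq2 size factors, scaling to mitochondrial mRNAs or at least 10 counts in every library. GEN1 (chr2:17753278-17788946, plus strand), the resolvase that cuts Holliday junctions, was the gene with the smallest adjusted p-values. In DMSO the libraries held 30.7, 29.3 and 27.1 CPM of GEN1, with lapatinib 27.4, 28.4 and 31.2, with nilotinib 26.9, 25.9 and 28.1 and with 0.1 µM THZ531 24.2, 23.4 and 23.3. Both combinations were measured at 5.19, 4.87 and 4.35 (lapatinib) and 4.34, 4.51 and 4.51 (nilotinib), and 1.0 µM THZ531 at 7.76, 6.83 and 6.62. The order of the groups was DMSO, low dose, high dose, combinations, and the combinations did not overlap the high dose. The log2 FC of GEN1 was -2.59 ± 0.08, -2.70 ± 0.08 and -2.04 ± 0.08 (± SE; lapatinib combination, nilotinib combination and 1.0 µM THZ531; edgeR adjusted p = 1.77e-15, 1.23e-15 and 7.29e-14). SMC6 overlaps it on the opposite strand with a mean of 3939 counts.

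EME1 (chr17:50373229-50381483, plus strand) and MUS81 encode an endonuclease of flaps and junctions. EME1 levels were 8.76, 9.93 and 9.11 CPM in DMSO, 7.96, 9.50 and 9.61 in lapatinib, 8.65, 9.81 and 10.3 in nilotinib and 7.02, 7.04 and 7.07 in the low dose of THZ531. Under the strong treatments it was 1.66, 2.37 and 2.17 (lapatinib combination), 1.86, 1.76 and 1.88 (nilotinib combination) and 2.55, 2.16 and 2.59 (1.0 µM THZ531). The low dose lay below DMSO and far above the strong treatments. Against DMSO this was a log2 FC of -2.16 ± 0.12 (± SE), -2.34 ± 0.12 and -1.93 ± 0.12 in the same order (edgeR adjusted p = 2.63e-12, 1.05e-12 and 1.91e-11). LRRC59 overlaps EME1 with a mean of 80802 counts on the opposite strand, with the same limit. MUS81 had log2 FC of -1.69, -1.47 and -1.67, and EFEMP2 overlaps it on the opposite strand with a mean of 7603 counts. EME2, the alternative partner of MUS81, was low at 0.332 ± 0.209 CPM (SD, n = 3) in DMSO, was not called in any strong treatment, and had log2 FC of 0.85, 0.67 and 0.71. MRPS34 and SPSB3 overlap EME2 on the opposite strand with means of 5576 and 686 counts, against 17 to 64 for EME2 in DMSO. EXO5 (chr1:40508767-40516038, plus strand), an exonuclease for crosslinked DNA, had the fewest counts in the strong treatments of the genes named here. For EXO5 the replicates gave 0.476, 0.457 and 0.587 CPM in DMSO, 0.521, 0.515 and 0.609 with lapatinib, 0.341, 0.459 and 0.527 with nilotinib and 0.506, 0.454 and 0.521 with 0.1 µM THZ531. Levels of 0.0219, 0.109 and 0.0891 were measured in the lapatinib combination, 0.140, 0.0432 and 0.132 in the nilotinib combination and 0.0735, 0.0419 and 0.257 at 1.0 µM THZ531. Its counts lay between 53 and 69 in DMSO and between 2 and 24 in the strong treatments, without overlap. Log2 FC for EXO5 came to -2.77 ± 0.48, -2.26 ± 0.46 and -2.03 ± 0.44 (± SE), with edgeR adjusted p = 3.72e-05, 0.000191 and 0.000436.

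The 11 genes of the Fanconi core complex and its anchor were mostly lower, with 9, 9 and 8 lower and 2, 1 and 1 higher. Of all genes, 37.8%, 37.3% and 36.8% were lower and 34.3%, 33.7% and 33.1% higher. FANCA (chr16:89737549-89816647, minus strand), a subunit of the core complex, was higher in all 3 and already at the low dose. FANCA stood at 16.8, 17.5 and 17.3 CPM in the DMSO libraries, 16.7, 17.5 and 16.9 with lapatinib, 15.7, 17.7 and 17.4 with nilotinib and 27.3, 27.4 and 29.3 with 0.1 µM THZ531. The lapatinib combination gave 29.9, 30.4 and 31.00, the nilotinib combination 29.7, 30.4 and 29.3 and 1.0 µM THZ531 25.7, 23.3 and 26.2. All libraries with any THZ531 lay above all libraries without it. FANCA log2 FC were 0.82 ± 0.06, 0.79 ± 0.06 and 0.54 ± 0.06 (± SE; edgeR adjusted p = 6.16e-10, 1.15e-09 and 3.26e-07). At the low dose the log2 FC was 0.70 ± 0.06 (edgeR adjusted p = 2.06e-06). With scaling to mitochondrial mRNAs the strong treatments gave 0.14, 0.17 and -0.0006 with no call, while the low dose stayed called at 0.71. ZNF276 overlaps FANCA on the opposite strand with a mean of 199 counts, against 1795 to 3314 for FANCA.

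FANCF (chr11:22622533-22625823, minus strand), a core subunit and the only gene of the 47 with 1 exon, fell strongly. In DMSO the libraries held 12.2, 10.02 and 11.7 CPM of FANCF, with lapatinib 12.3, 12.1 and 12.97, with nilotinib 13.9, 11.8 and 11.8 and with 0.1 µM THZ531 8.08, 8.58 and 8.42. With 0.1 µM THZ531 added to lapatinib it was 2.62, 2.61 and 3.27, added to nilotinib 2.24, 1.99 and 2.13, and with 1.0 µM THZ531 1.96, 1.39 and 2.49. The low dose lay between DMSO and the strong treatments without overlap, and its log2 FC of -0.43 was not called (edgeR adjusted p = 0.0619). It was called with library size alone, upper-quartile scaling, at least 10 counts in every library, a replicate block, only the groups compared and DESeq2's Wald test. With DESeq2 size factors, scaling to mitochondrial mRNAs or no filter it was not. The log2 FC of FANCF was -1.99 ± 0.14, -2.41 ± 0.15 and -2.53 ± 0.15 (± SE; lapatinib combination, nilotinib combination and 1.0 µM THZ531; edgeR adjusted p = 1.51e-10, 1.29e-11 and 1.07e-11). UBE2T (chr1:202331657-202341936, minus strand), the enzyme that passes ubiquitin to FANCD2, had the highest level per kb of exon in DMSO. UBE2T levels were 52.4, 48.1 and 54.1 CPM in DMSO, 57.4, 49.3 and 50.5 in lapatinib, 50.6, 52.4 and 54.2 in nilotinib and 49.98, 46.01 and 43.7 in the low dose of THZ531. Both combinations were measured at 13.3, 10.7 and 9.98 (lapatinib) and 14.2, 13.02 and 10.9 (nilotinib), and 1.0 µM THZ531 at 20.4, 25.7 and 19.4. The combinations lay below the high dose, and the high dose below DMSO. Against DMSO this was a log2 FC of -2.19 ± 0.12 (± SE), -2.02 ± 0.12 and -1.24 ± 0.12 in the same order (edgeR adjusted p = 3.48e-12, 1.12e-11 and 1.41e-08). FANCE, another core subunit, had log2 FC of -1.86, -1.78 and -1.75.

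FANCM, the translocase that finds the lesion, had log2 FC of -1.58, -1.23 and -1.68, and its partner FAAP24 had -1.18, -1.40 and -1.42. The subunits FANCB, FANCC and FAAP100 were lower by less, FANCB with -0.89, -0.82 and -1.06, FANCC with -0.66, -0.51 and -0.43, and FAAP100 with -0.73, -0.68 and -0.54. FANCG had -0.55, -0.39 and -0.18, with the last value not called (edgeR adjusted p = 0.154). FANCL, the ubiquitin ligase of the complex, had 0.24, 0.04 and 0.02, with only the lapatinib combination called (edgeR adjusted p = 0.0253). That call was lost with library size alone, with no filter and with only the groups compared. It was also lost on leaving out DMSO replicate 2 or replicate 1 or 2 of the lapatinib combination. With scaling to mitochondrial mRNAs FANCL was called lower in all 3 (-0.45, -0.58 and -0.53). AOPEP overlaps FANCC and VRK2 overlaps FANCL, with means of 4150 and 2744 counts.

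The substrates of the core complex were not called lower in any strong treatment under TMM scaling. FANCD2 (chr3:10026437-10101932, plus strand) encodes the protein whose ubiquitination marks an active pathway. For FANCD2 the replicates gave 40.2, 38.6 and 38.5 CPM in DMSO, 40.7, 38.5 and 37.5 with lapatinib, 39.5, 37.2 and 38.9 with nilotinib and 33.7, 32.6 and 32.4 with 0.1 µM THZ531. Under the strong treatments it was 38.7, 33.8 and 34.5 (lapatinib combination), 42.3, 38.4 and 37.7 (nilotinib combination) and 38.4, 38.6 and 36.5 (1.0 µM THZ531). The strongly treated libraries overlapped DMSO, while the low dose lay below it. Log2 FC for FANCD2 came to -0.13 ± 0.07, 0.01 ± 0.07 and -0.05 ± 0.07 (± SE), with edgeR adjusted p = 0.0768, 0.849 and 0.539. With 0.1 µM the log2 FC was -0.25 ± 0.07 (edgeR adjusted p = 0.0263), and the call was lost when any of the 6 libraries compared was left out. FANCD2 with scaling to mitochondrial mRNAs was called lower in all 3 strong treatments (-0.81, -0.60 and -0.59) and not at the low dose, and with library size alone it was also called in all 3. FANCI (chr15:89243979-89317259, plus strand), its partner in the clamp, rose by a small amount. FANCI stood at 87.8, 83.2 and 85.4 CPM in the DMSO libraries, 88.7, 85.5 and 80.5 with lapatinib, 84.7, 84.6 and 85.97 with nilotinib and 81.4, 77.6 and 73.3 with 0.1 µM THZ531. Levels of 108, 97.7 and 97.4 were measured in the lapatinib combination, 117, 106 and 99.7 in the nilotinib combination and 109, 113 and 107 at 1.0 µM THZ531. The 9 strongly treated libraries lay above DMSO on this scale. FANCI log2 FC were 0.24 ± 0.06, 0.33 ± 0.06 and 0.36 ± 0.06 (± SE; edgeR adjusted p = 0.00248, 0.000136 and 5.01e-05). With scaling to mitochondrial mRNAs these became -0.44, -0.29 and -0.18, the first of them called lower. POLG overlaps FANCI with a mean of 2593 counts on the opposite strand. BRIP1, a helicase bound by BRCA1, had log2 FC of -0.90, -0.62 and -0.67.

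**Figure D3:**
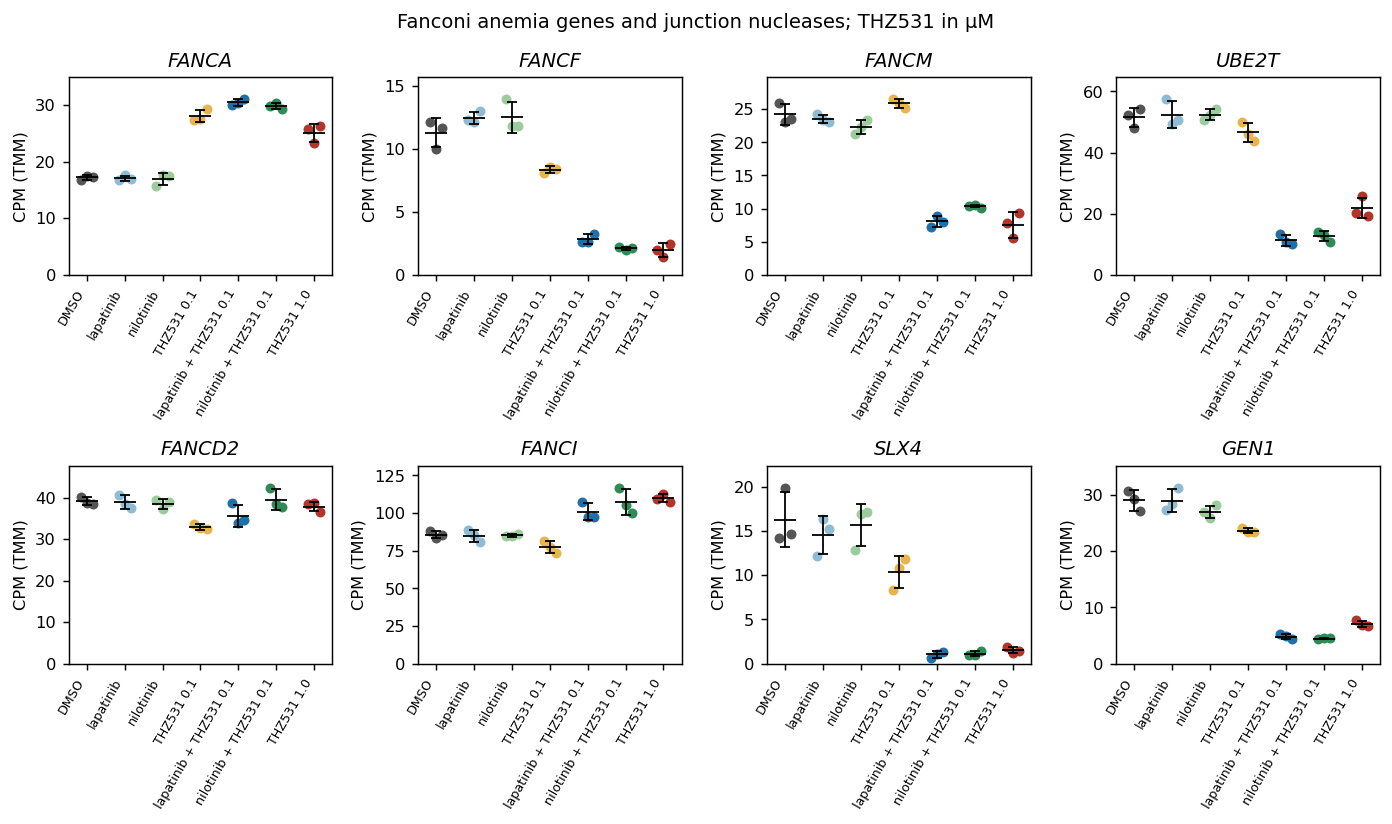
CPM after TMM scaling (vertical axes, from 0) in every library (points) of the 7 groups (horizontal axes), with the mean (long bar) and SD (n = 3) for 6 Fanconi anemia genes and the nuclease genes SLX4 and GEN1. FANCA lies above DMSO in every group with THZ531 on this scale, though its rise in the strong treatments was not called with scaling to mitochondrial mRNAs, FANCD2 overlaps DMSO in the strong treatments, and FANCF, UBE2T, FANCM, SLX4 and GEN1 drop in the strong treatments.

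The low dose of THZ531 alone asked how much of the response 0.1 µM reaches. It lowered 7 genes and raised 1, against 4.31% and 1.78% of all genes. BRCA1 and RECQL5 fell the most, followed by RAD50, SFR1, EME1, GEN1 and FANCD2, and FANCA was the gene that rose. Their log2 FC were -0.84, -0.79, -0.50, -0.48, -0.40, -0.30, -0.25 and 0.70 in this order. The median of the 47 genes was -0.08, and that of all genes 0.01. BRCA1, RECQL5 and FANCA stayed called whichever library was left out, whereas the number of lower genes was 2 without DMSO replicate 1, 3 without DMSO replicate 2, and 3 without any 1 of the low-dose libraries. EME1 and FANCD2 lost their calls without any 1 of the DMSO or low-dose libraries, and GEN1 without any of these but DMSO replicate 3. SFR1 lost its call without DMSO replicate 1 or low-dose replicate 3. DESeq2's Wald test called 10 lower and 2 higher.

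Lapatinib and nilotinib alone were each compared with DMSO. So few of all genes were called that an absence of calls says little about the 47. No gene of the 47 was called with edgeR for either inhibitor, where 0.0561% of all genes were lower and 0.256% higher with lapatinib, and 0.0998% and 0.243% with nilotinib. The smallest adjusted p was 0.432 with lapatinib and 0.196 with nilotinib. At an unadjusted p under 0.05 there were 0 lower and 2 higher (RBBP8 and WRN) with lapatinib and 1 lower (TOP3A) and 2 higher (RBBP8 and MUS81) with nilotinib, and DESeq2's Wald test called 0 for both. Log2 FC ranged from -0.49 to 0.18 with lapatinib and from -0.33 to 0.27 with nilotinib. With nilotinib all libraries of XRCC2 (79.5% of the mean DMSO level), BRCA2 (81.6%) and FANCB (90.1%) lay below DMSO. Those of MUS81 (120.4%) and RAD54B (109.1%) lay above it. With lapatinib the libraries of TOP3A, FANCC and FAAP100 lay below DMSO, and those of PALB2, RBBP8 and WRN above.

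The combinations asked whether the inhibitors change what 0.1 µM THZ531 does, which was tested with an interaction term, the difference between the effect of 0.1 µM THZ531 with and without the inhibitor on the log2 scale. With lapatinib the term was negative for 36 genes and positive for 3, against 32.0% and 28.2% of all genes, and with nilotinib negative for 36 and positive for 5, against 31.2% and 25.6%. EXO1, GEN1 and RAD54B had the smallest adjusted p in both. EXO1 had terms of -2.33 ± 0.12 and -2.42 ± 0.12 (edgeR adjusted p = 6.78e-12 and 5.09e-12), GEN1 -2.30 ± 0.11 and -2.30 ± 0.11 (3.15e-12 and 3.33e-12), and RAD54B -2.06 ± 0.12 and -2.03 ± 0.12 (1.52e-11 and 2.17e-11). BRCA1, which had already fallen at the low dose, had smaller terms of -0.78 and -0.55 (edgeR adjusted p = 0.000442 and 0.00851). FANCA had 0.13 and 0.11, neither called (edgeR adjusted p = 0.211 and 0.303). Positive terms with lapatinib belonged to RAD51B, FANCI and EME2, and with nilotinib to RAD51B, MRE11, RAD50, FANCD2 and FANCI. The EME2 term rests on 17 to 65 counts per library, and EME2 in the lapatinib combination overlapped DMSO. With scaling to mitochondrial mRNAs no term was positive and called.

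Set against the high dose directly, the lapatinib combination was lower for 17 genes and higher for 4, against 16.1% and 12.8% of all genes, and the nilotinib combination lower for 9 and higher for 2, against 13.0% and 11.2%. UBE2T, RAD54L, BRCA1, RECQL5, GEN1, TOP3A, RMI2 and SFR1 were lower in both. SFR1 lost its call for nilotinib with a replicate block, DESeq2 size factors, DESeq2's Wald test, no filter and most single libraries left out, and RECQL5 lost its own without any 1 of the nilotinib combination libraries. UBE2T differed by -0.95 ± 0.12 and -0.78 ± 0.12 on the log2 scale (edgeR adjusted p = 7.07e-06 and 6.28e-05), RAD54L by -0.75 ± 0.09 and -0.82 ± 0.09 (4.23e-06 and 2.19e-06), and GEN1 by -0.56 ± 0.08 and -0.67 ± 0.08 (3.92e-05 and 7.50e-06). BRCA1 differed by -0.69 and -0.54 (edgeR adjusted p = 0.000193 and 0.00211). FANCA was higher in both, by 0.28 and 0.25. FANCF, HELQ and FAAP24 were higher with lapatinib, by 0.54, 0.28 and 0.25, and FANCM with nilotinib, by 0.45. HELQ and FAAP24 lost their calls with library size alone, upper-quartile scaling and no filter, and FAAP24 also on leaving out many of the single libraries. SLX4, the gene that fell furthest, did not differ by the test, with -0.56 ± 0.25 and -0.46 ± 0.25. For lapatinib SLX4 was called with a replicate block, with scaling to mitochondrial mRNAs and without replicate 3 of the lapatinib combination. With only the groups compared in the fit 4 genes were lower and 0 higher for lapatinib and 3 and 0 for nilotinib, and with scaling to mitochondrial mRNAs 0 were higher in either comparison. Without replicate 3 of the lapatinib combination 11 were lower and 1 higher, and without replicate 2 of 1.0 µM THZ531 1 was higher.

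**Figure D4:**
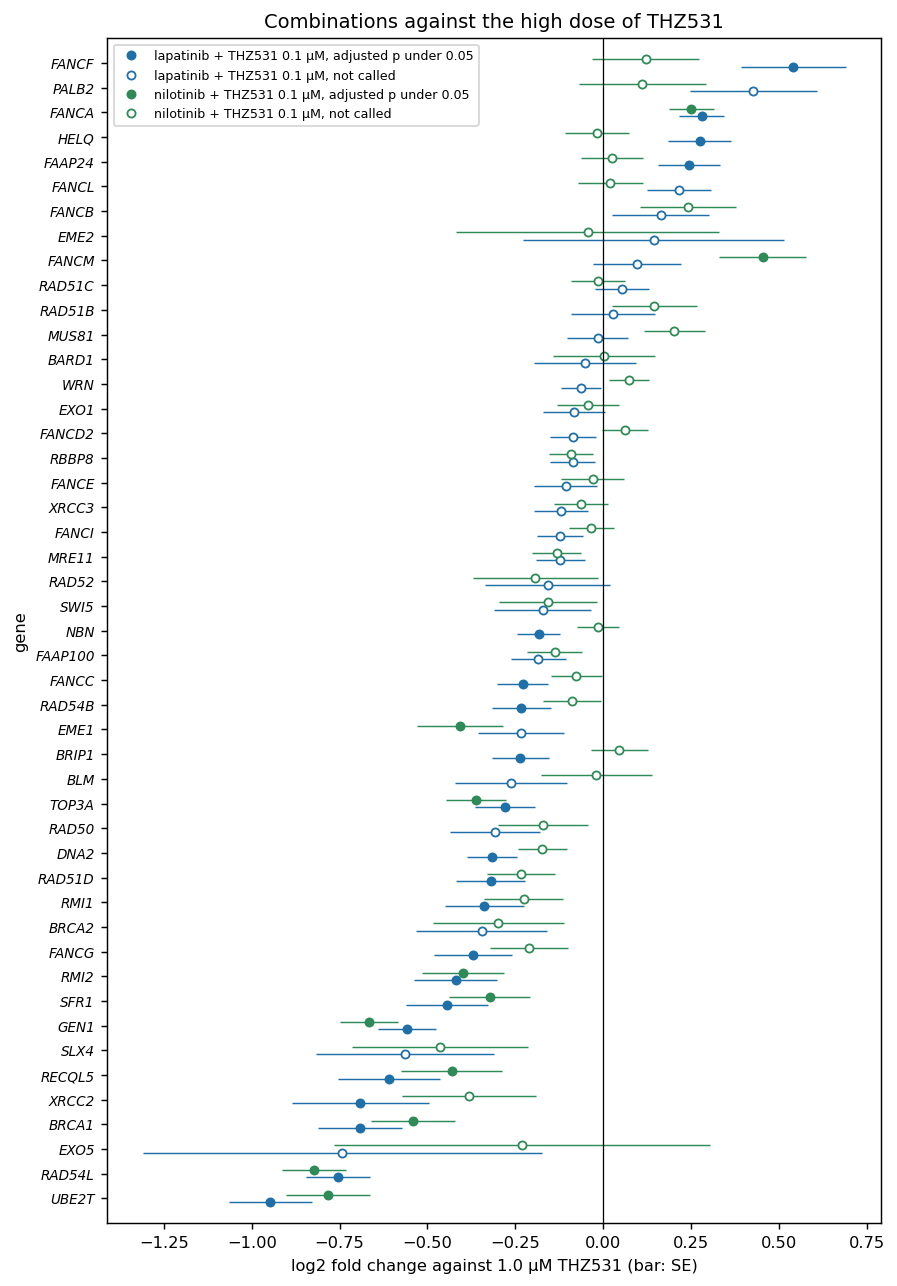
Log2 FC (horizontal axis) of each combination against 1.0 µM THZ531 for the 47 genes (vertical axis, ordered by the lapatinib combination), with bars for the SE and filled points for an edgeR adjusted p under 0.05. UBE2T, RAD54L and BRCA1 lie left of 0 for both combinations, and FANCF and FANCA lie right of it for lapatinib.

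No gene of the 47 was called between the combinations with edgeR, where 0.736% of all genes were lower and 0.730% higher with lapatinib. The smallest adjusted p was 0.0870, 7 genes were lower and 4 higher at an unadjusted p under 0.05, and DESeq2's Wald test called 1 gene, BRIP1, lower. BRIP1 stood at 16.3 ± 1.34 CPM (SD, n = 3) in the lapatinib and 19.8 ± 1.04 in the nilotinib combination. Without replicate 2 of 1.0 µM THZ531, a library outside the comparison that shares its estimate of spread, edgeR called BRIP1 and FANCM lower. SLX4 differed by -0.10 ± 0.26, BRCA1 by -0.15 ± 0.12 and FANCF by 0.42 ± 0.15 on the log2 scale (± SE).

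The 47 genes span from 3.29 kb (FANCF) to 863 kb (RAD51B) of the genome. In the lapatinib combination 8 of the 9 genes under 10 kb were lower, where 28.8% of 2826 protein-coding genes of that span were. From 10 to 30 kb the share was 6 of 7 against 41.9% of 3886, from 30 to 100 kb 17 of 23 against 46.4% of 4334, and from 100 kb upwards 6 of 8 against 42.2% of 2699. EME2, at 8.89 kb, was the exception among the short genes, while FANCF, RMI2, SFR1, EXO5, FAAP24, FANCG, MUS81 and EME1 were lower. Across the 47 genes Spearman's rho of log2 FC with span was 0.33, with exon number 0.26, with exonic length 0.01 and with the DMSO level 0.15, and across the protein-coding genes rho was -0.15 with span (n = 13745) and -0.27 with exonic length (n = 13617). These describe genes measured in the same libraries, which are not independent points. Counts were made per gene, so transcripts cut short inside introns were not told apart from full-length ones.

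Of 33 genes that work beside the 47, 31 were tested and moved in both directions. In the lapatinib combination 13 were lower and 10 higher (41.9% and 32.3%, against 37.8% and 34.3% of all genes), in the nilotinib combination 15 and 9 (48.4% lower, against 37.3%), and with 1.0 µM THZ531 12 and 11 (38.7% lower, against 36.8%). Their median log2 FC was -0.20, -0.19 and -0.05. ERCC4, a nuclease subunit that unhooks crosslinks, RFWD3, a ligase that acts on RPA at stalled forks, and HROB, which loads a helicase during recombination, had the lowest log2 FC of the list in the lapatinib combination. ERCC4 had -4.06, -4.10 and -3.52, RFWD3 had -3.82, -3.50 and -2.57, and HROB had -2.75, -2.61 and -2.31. SEM1, a small BRCA2 partner, was higher under TMM scaling, with log2 FC of 0.91, 0.81 and 0.84. BABAM1 and BABAM2, subunits of the BRCA1-A complex, were higher on the same scale, BABAM1 with 0.68, 0.64 and 0.60 and BABAM2 with 0.67, 0.59 and 0.61. SLX1A and SLX1B, partners of SLX4, did not pass the filter.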

How the data were processed

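PolyA-selected, unstranded RNA-seq libraries (paired ends) from Hs578T cells were made 8 h after treatment, 3 for each of 7 groups (21 in all). The authors aligned reads to GRCh38 with HISAT2 2.1.0 and deposited whole-number counts per gene from featureCounts, whose version, annotation and handling of read pairs are not given in the sources used here. Of counts between 1 and 20, 63.9% were even, so both ends of a pair may have been counted and the number of fragments may be lower than the counts. Of 28395 gene IDs, 27745 matched RefSeq.

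From the deposited counts, edgeR 4.0.16 (R 4.3.3, limma 3.58.1) was run with filterByExpr, TMM scaling, 1 mean per group over all 21 libraries, and quasi-likelihood tests with Benjamini-Hochberg adjustment over all 16036 genes tested. CPM are counts over the TMM-scaled library size, and errors of levels are SD over 3 libraries. The SE of a log2 FC was taken as its absolute value over the square root of the quasi-likelihood F statistic. It rests on a spread estimated over all 21 libraries, and is not the replicate spread of the groups compared. The log2 levels behind the replicate correlations use a prior count of 2, and fold changes come from the edgeR fit at its default prior count. Totals were 97612207 to 112229052 counts per library, and counting precision is that of the fragments behind them. The fit was tested on simulated data for 1.0 µM THZ531 against DMSO (15468 genes), where 199 of 200 changed genes were found, 99 of them changed 2-fold and 100 changed 4-fold, with 11 unchanged genes called. Only these 200 genes, drawn above a floor on level, were changed, as many up as down. In the real comparison 36.8% of genes were lower and 33.1% higher, so the simulation does not show how scaling affects calls or directions there.

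The 47 genes and the lists of partner and cell cycle genes were chosen with earlier results of these data known. Values in every library are given for the 4 BRCA core genes, the 6 lowest and 4 highest called log2 FC in each strong treatment, genes called with any compound alone, and the 3 smallest adjusted p in each comparison of combinations with 1.0 µM THZ531 and each interaction. Of the partners, the 3 largest falls and rises with the lapatinib combination are named. Alternatives were DESeq2 size factors, library size alone, upper-quartile scaling, scaling to 13 mitochondrial mRNAs, no filter, at least 10 counts in every library, a replicate block, only the groups compared, DESeq2 1.42.0 (Wald test), and leaving out each library.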

Additional observations from a re-analysis of the deposited data

Results flagged for a closer look

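The effect of 0.1 µM THZ531 differed between cells with and without a second inhibitor, by the test of the difference itself (edgeR's quasi-likelihood test of the interaction with Benjamini-Hochberg adjustment). With lapatinib the interaction was called negative for 36 of the 47 genes and positive for 3, against 32.0% and 28.2% of all genes, and with nilotinib negative for 36 and positive for 5, against 31.2% and 25.6%. No positive term was called with scaling to mitochondrial mRNAs. GEN1, the Holliday junction resolvase, had terms of -2.30 and -2.30 on the log2 scale (edgeR adjusted p = 3.15e-12 and 3.33e-12, lapatinib and nilotinib). EXO1, the resection exonuclease, had -2.33 and -2.42 (edgeR adjusted p = 6.78e-12 and 5.09e-12). RAD54B, the translocase, had -2.06 and -2.03 (edgeR adjusted p = 1.52e-11 and 2.17e-11). The 2 interactions share the DMSO and 0.1 µM THZ531 libraries and are not independent of each other.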

How the results depend on the processing

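Across all alternatives the number of genes lower stayed between 36 and 44 (lapatinib combination), 36 and 43 (nilotinib combination) and 35 and 40 (1.0 µM THZ531). The numbers of higher genes depended on the scaling. With library size alone, 1, 2 and 2 genes were higher (lapatinib combination, nilotinib combination, 1.0 µM THZ531), with scaling to mitochondrial mRNAs 0, 0 and 0, and with upper-quartile scaling 9 at 1.0 µM THZ531 and 1 gene beyond a log2 FC of 1 in the lapatinib combination. With library size alone log2 FC turned negative for FANCI (-0.089) and RBBP8 (-0.027) in the lapatinib combination and for RBBP8 (-0.0071) and FANCD2 (-0.29) in the nilotinib combination. With mitochondrial scaling it turned negative in the lapatinib combination for FANCI (-0.44), RBBP8 (-0.38) and RAD51B (-0.11), in the nilotinib combination for FANCI (-0.29), RBBP8 (-0.33) and FANCD2 (-0.60), and at 1.0 µM THZ531 for FANCI (-0.18), RBBP8 (-0.16), FANCA (-0.0006) and RAD50 (-0.41). Of the genes given without values per library, MRE11 (-0.46, -0.40 and -0.19), FANCL (-0.45, -0.58 and -0.53) and SWI5 (-0.64, -0.56 and -0.33) turned negative in all 3 as well. Library size alone moved the median of all genes by -0.34, -0.31 and -0.27, and upper-quartile scaling by 0.15, 0.13 and 0.19.

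For 0.1 µM THZ531 the number lower was 12 with library size alone, 11 with upper-quartile scaling, 2 with mitochondrial scaling and 11 with only the groups compared, and the number higher was 2 with only the groups compared and 2 with DESeq2. Against 1.0 µM THZ531, the lapatinib combination had 2 higher with library size alone, upper-quartile scaling or no filter, 0 with mitochondrial scaling, and 4 lower and 0 higher with only the groups compared, while the nilotinib combination had 0 higher with mitochondrial scaling and 3 lower and 0 higher with only the groups compared. Between the combinations DESeq2 called 1 lower. Positive interactions with lapatinib numbered 1 with library size alone, 8 with upper-quartile scaling, 0 with mitochondrial scaling and 5 with at least 10 counts in every library, and with nilotinib 1 with library size alone and 0 with mitochondrial scaling. Apart from changes that follow from the scaling itself, the cause was not tested.

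Leaving out 1 library at a time gave 37 to 38 lower and 5 to 7 higher for the lapatinib combination, 37 to 37 and 5 to 6 for the nilotinib combination, and 36 to 37 and 5 to 6 for 1.0 µM THZ531. Beyond a log2 FC of -1 there were 26 to 27, 26 to 27 and 25 to 26, and beyond 1 there were 0 to 1 in each, the 1 being reached without DMSO replicate 2 in all 3 and without replicate 1 of the lapatinib combination in the lapatinib combination. For 0.1 µM THZ531 there were 2 to 10 lower and 1 to 2 higher. Against 1.0 µM THZ531 there were 11 to 18 lower and 1 to 5 higher with lapatinib, and 6 to 10 and 2 to 2 with nilotinib. Between the combinations there were 0 to 2 lower and 0 to 0 higher. Negative interactions were 36 to 36 and 35 to 36, and positive ones 2 to 4 and 4 to 6. For each inhibitor alone the number was 0 throughout.

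No label says that a replicate number marks a shared experiment, and the data did not settle it: deviations of same-numbered libraries correlated at 0.152 on average (63 pairs, lowest -0.83, 36 over 0.1) against -0.0694 for different numbers, and 8 of 21 libraries correlated best with their own number. With a replicate block 0.1 µM THZ531 lowered 10 genes and raised 1, the strong treatments lowered 38, 37 and 36, and no count moved by more than 1.5 times.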
